A study of Mus musculus with 2 samples.

Results

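The genes described here write, erase and read histone acetylation. They were chosen by name as 39 gene symbols matched through their Ensembl identifiers to the 34745 rows of the deposited gene table. They comprise 13 acetyltransferases and acetyltransferase coactivators, 8 bromodomain proteins, 11 zinc-dependent histone deacetylases (Hdac1 to Hdac11) and 7 sirtuins. All 39 had a row. RNA sequencing was done on 2 samples. The samples were primary macrophages differentiated from C57BL/6 mouse bone marrow (BMDM). Before sequencing, the cells had received an antisense oligonucleotide (ASO) by transfection and lipopolysaccharide (LPS), a bacterial ligand of TLR4. One library came from cells given AclyE14-ASO, the oligonucleotide named for Acly, and the other from cells given Control-ASO. Both libraries were therefore from transfected and LPS-treated cells, with no untransfected or unstimulated cells among them. The labels give neither the dose and time of LPS nor the number of mice or cultures, and they do not spell out E14.

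Histone acetyltransferases transfer the acetyl group of acetyl-CoA to lysines of histone tails, and ATP-citrate lyase, the Acly product, makes acetyl-CoA from citrate outside the mitochondria. Deacetylases of the HDAC family remove the group by hydrolysis with a zinc ion, and sirtuins remove it at the cost of NAD+. Bromodomains bind acetylated lysine and bring remodelling, transcription or further acetyltransferase complexes to it. In macrophages these enzymes act at the enhancers and promoters of genes that LPS switches on.

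The AclyE14-ASO library held 12751076 gene counts and the Control-ASO library 14215397. With 1 library in each group no test was possible, and every difference below lies between these 2 libraries, without a replicate check. Levels are FPKM as deposited, divided by gene lengths from a gene model not given here, so an order of levels between genes holds only on that model. A ratio is the gene's count divided by its library's total, AclyE14-ASO over Control-ASO, with an exact (Clopper-Pearson) 95% interval that covers counting error only. Since the reads carry no molecular identifiers they need not be independent molecules, and the true counting error may be wider. A gene was called measured at a mean of at least 1 FPKM over both libraries, which 8658 genes reached, and called higher or lower at 1.5-fold or more. The median measured gene had a log2 ratio of -0.16, so ratios are also read against that value. Acly itself (chromosome 11, 100476353 to 100528000, GRCm38) had 768 counts in the AclyE14-ASO library and 1549 in the Control-ASO library, a ratio of 0.553 (0.506 to 0.603).

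Markers of other cells differed between the libraries too. All 9 macrophage markers were measured, of which 2 were higher and 2 lower by 1.5-fold or more, with 13178 FPKM summed in the AclyE14-ASO library and 11167 in the Control-ASO library. Lyz2 made up most of that sum, and the other 8 summed to 902 FPKM with AclyE14-ASO and 1370 FPKM with Control-ASO. Cd68 made up most of what remained, with 590 FPKM with AclyE14-ASO and 1059 with Control-ASO, so the smaller sum mainly reports Cd68. Itgam went the other way, with 43.2 FPKM with AclyE14-ASO and 9.12 with Control-ASO. Of the 9, 5 had a ratio below 1 and 4 had one above 1. Of 10 fibroblast and stromal markers 6 were measured and all 6 were higher by 1.5-fold or more, with 210 FPKM summed over the list in the AclyE14-ASO library and 48.7 in the Control-ASO library. Of 8 proliferation markers 3 were measured and 3 were higher, with sums of 15.4 FPKM in the AclyE14-ASO library and 4.47 in the Control-ASO library. Of 8 neutrophil markers 2 were measured, both higher, and S100a9, Ly6g, Elane and Camp were at 0 in both libraries; the sum was 48.1 FPKM with AclyE14-ASO and 24.0 FPKM with Control-ASO. None of 6 lymphocyte markers was measured, Cd3e was at 0 in both libraries, and they summed to 0.040 FPKM with AclyE14-ASO and 0.487 FPKM with Control-ASO. The 13 genes of the mitochondrial genome held 1.11% of the AclyE14-ASO counts and 1.40% of the Control-ASO counts. What part these differences in marker RNA and RNA composition have in the values below was not tested. In bulk RNA, fewer cells of a type and less RNA per cell cannot be told apart.

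Most of the histone acetylation genes had somewhat lower levels in the AclyE14-ASO library, with the lowest class median in the bromodomain genes of this list. Other bromodomain and YEATS readers, described below, had a median log2 ratio of -0.06. Of the 39 genes 27 were measured, and each of those 27 also reached 1 FPKM in both libraries separately. Their median log2 ratio was -0.34, against -0.16 over all measured genes. A ratio below 1 was found for 22 of the 27, while 64.9% of all measured genes had one, and 21 of the 27 lay below the median measured gene. The 6 genes Brd1, Brd7, Brd8, Brd9, Hdac5 and Sirt1 were lower by 1.5-fold or more, where 14.4% of measured genes were, and 0 were higher, where 9.4% of measured genes were. The counting interval lay wholly below 1 for 18 of the 27 (44.2% of measured genes) and wholly above 1 for 1, Kat2a (21.7% of measured genes). No interval lay wholly past the 1.5-fold limit, and Brd7 and Brd9 sat at the limit itself with ratios of 0.664 and 0.663. These calls rest on scaling by library totals. With every ratio centred on the median measured gene, 0 of the 27 were lower, where 8.2% of measured genes were, and 1 was higher, Kat2a, where 12.9% of measured genes were.

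**Figure D1:**
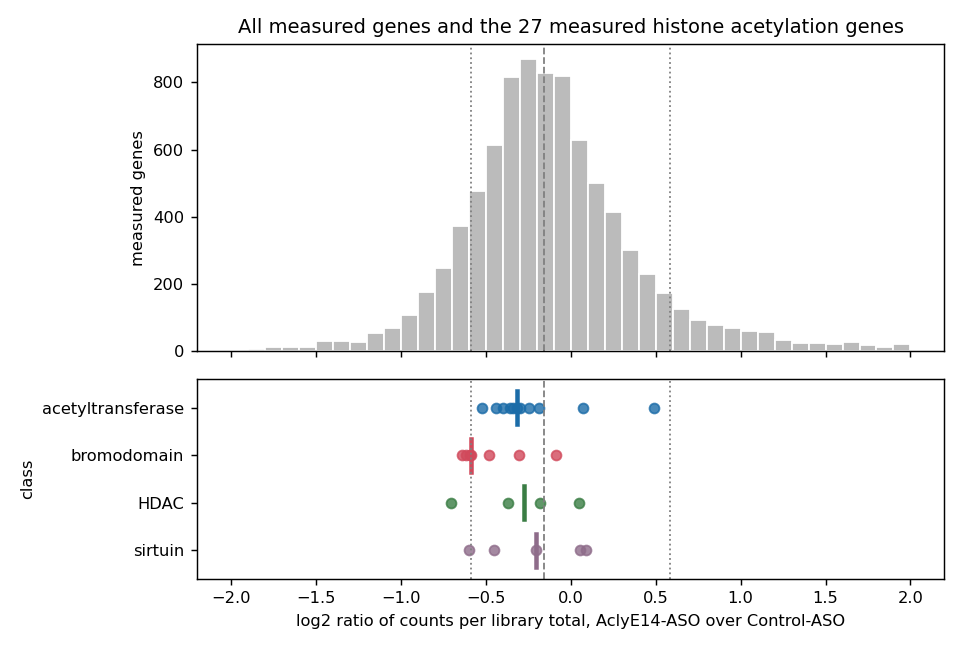
The upper panel counts measured genes by log2 ratio of counts per library total, AclyE14-ASO over Control-ASO, between -2 and 2. The lower panel shows the 27 measured histone acetylation genes by class as points with the class median as a bar; the dashed line is the median of measured genes at -0.16 and dotted lines mark 1.5-fold. The bromodomain genes lie farthest to the left, with a median of -0.59.

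As summed FPKM the 39 genes held 206 FPKM in the AclyE14-ASO library and 249 FPKM in the Control-ASO library, and the ratio of their summed counts was 0.811 (0.796 to 0.826). The acetyltransferases made up 95.3 FPKM of it in the AclyE14-ASO library and 114 in the Control-ASO library, and the bromodomain genes 66.0 FPKM with AclyE14-ASO and 86.9 with Control-ASO. The HDAC genes held 18.2 FPKM with AclyE14-ASO and 20.4 with Control-ASO, and the sirtuins 26.6 with AclyE14-ASO and 28.0 with Control-ASO. The order of levels was much alike in both libraries. Brd2, a bromodomain protein of the BET family that binds acetylated chromatin at active promoters, ranked first in each, followed by Kat5 and Hat1. Sirt2 and Ncoa3 exchanged the next ranks. The widest move belonged to Kat2a, which ranked 16 of 39 in the AclyE14-ASO library and 23 of 39 in the Control-ASO library. These genes were long, with a median length of 7328 nt implied by the deposited counts and FPKM, against 4763 nt over all measured genes. Among the longest measured genes, those above the upper quartile of 7917.5 nt, were 12 of the 27, of which 4 were lower by 1.5-fold, where 14.3% of all genes of that length were.

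**Figure D2:**
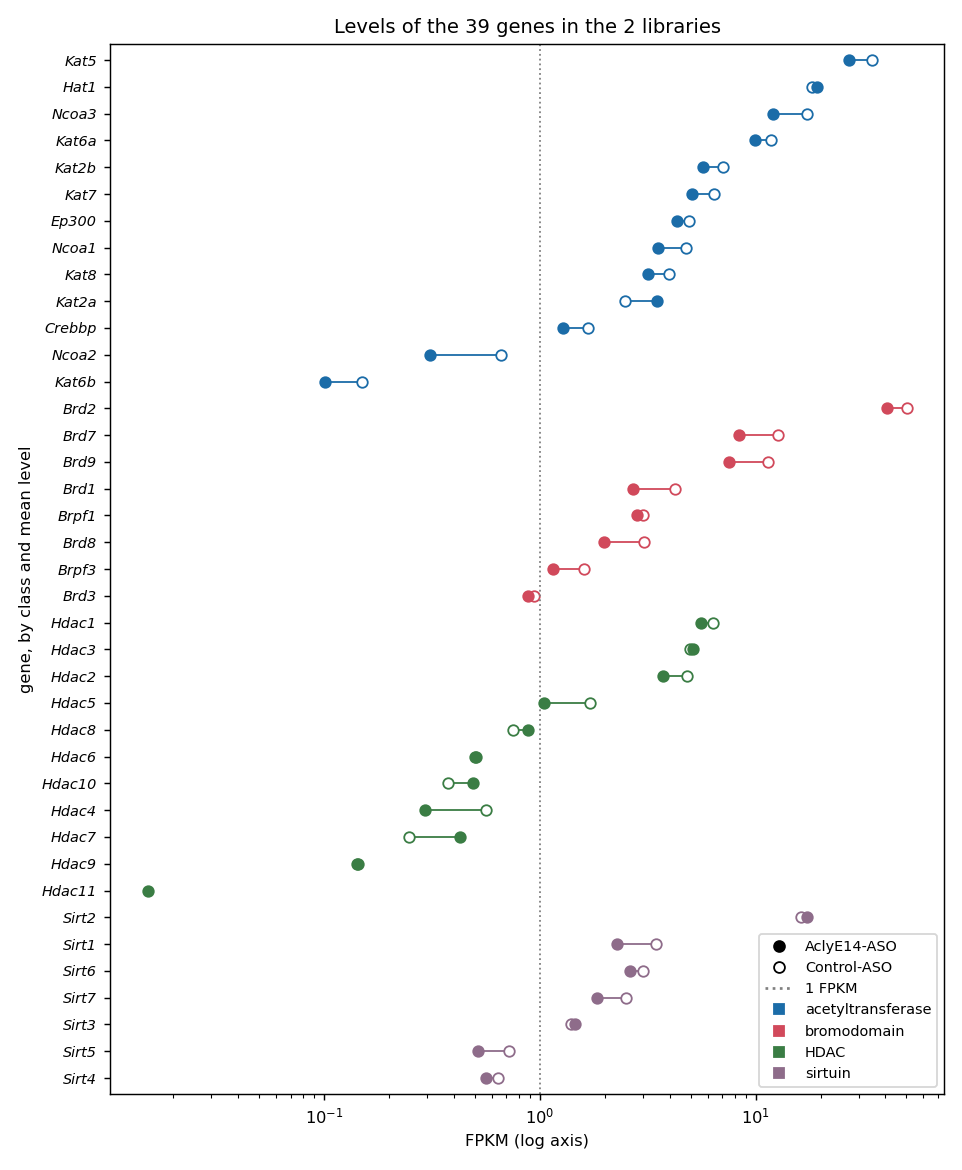
FPKM on a log axis for each of the 39 genes, ordered by class and mean level, with filled points for the AclyE14-ASO library and open points for the Control-ASO library. The dotted line is 1 FPKM. Brd2 is the most abundant at 40.5 FPKM with AclyE14-ASO and 50.1 with Control-ASO, and Hdac11 has no open point because it was listed at 0 in the Control-ASO library.

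The start regions of 5 of the 6 measured genes that lay past 1.5-fold are shown beside that of Kat2a, the only one of the 27 measured genes with an interval wholly above 1, so that their sequences can be compared. RefSeq promoters (GRCm38.p6, 250 bases before to 50 after the start, 5′ to 3′ on the gene's strand) were matched by symbol for 32 of the 39 genes. Capitals mark matches on either strand to any of 7 motifs, namely the GC box GGGCGG, ETS CCGGAAG, the CCAAT box CCAAT, NRF1 GCATGCGC, the E-box CACGTG, the CRE TGACGTCA and YY1 AAGATGGC. Neighbouring or overlapping matches run together in capitals. The windows are chr15:88734170-88734469 (minus strand) for Brd1, chr8:88362123-88362422 (minus) for Brd7, chr13:73937561-73937860 (plus, the first of a pair of listed starts) for Brd9, chr11:102230123-102230422 (minus) for Hdac5, chr10:63338986-63339285 (minus) for Sirt1 and chr11:100712418-100712717 (minus) for Kat2a.
Brd1: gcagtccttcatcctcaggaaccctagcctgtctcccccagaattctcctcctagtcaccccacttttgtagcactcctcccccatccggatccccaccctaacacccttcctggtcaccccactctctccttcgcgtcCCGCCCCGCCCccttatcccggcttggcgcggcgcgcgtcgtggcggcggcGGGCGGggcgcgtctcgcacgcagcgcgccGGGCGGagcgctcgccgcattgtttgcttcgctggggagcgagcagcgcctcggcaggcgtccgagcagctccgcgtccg
Brd7: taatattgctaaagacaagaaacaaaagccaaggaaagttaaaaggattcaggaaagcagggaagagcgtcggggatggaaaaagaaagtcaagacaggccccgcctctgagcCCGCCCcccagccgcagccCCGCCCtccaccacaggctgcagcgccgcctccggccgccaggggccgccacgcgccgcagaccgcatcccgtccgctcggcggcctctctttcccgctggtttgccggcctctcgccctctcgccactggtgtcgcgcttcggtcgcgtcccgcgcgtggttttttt
Brd9: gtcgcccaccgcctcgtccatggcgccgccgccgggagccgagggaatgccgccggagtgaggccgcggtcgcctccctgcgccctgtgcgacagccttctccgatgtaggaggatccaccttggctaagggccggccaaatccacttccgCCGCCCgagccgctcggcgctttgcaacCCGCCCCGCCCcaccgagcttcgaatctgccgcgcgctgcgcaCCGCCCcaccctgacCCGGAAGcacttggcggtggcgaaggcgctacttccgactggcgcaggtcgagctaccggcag
Hdac5: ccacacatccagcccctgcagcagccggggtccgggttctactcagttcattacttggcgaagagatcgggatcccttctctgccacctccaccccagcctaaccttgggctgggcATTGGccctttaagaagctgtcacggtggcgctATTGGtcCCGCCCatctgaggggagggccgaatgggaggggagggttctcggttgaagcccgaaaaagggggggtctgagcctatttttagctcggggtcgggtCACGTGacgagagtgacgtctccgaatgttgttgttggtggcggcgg
Sirt1: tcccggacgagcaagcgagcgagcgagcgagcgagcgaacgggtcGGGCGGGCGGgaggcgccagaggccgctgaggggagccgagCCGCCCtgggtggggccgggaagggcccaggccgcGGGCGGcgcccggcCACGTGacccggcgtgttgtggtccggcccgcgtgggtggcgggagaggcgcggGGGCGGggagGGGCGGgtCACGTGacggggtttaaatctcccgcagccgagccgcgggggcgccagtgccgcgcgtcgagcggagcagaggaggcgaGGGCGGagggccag
Kat2a: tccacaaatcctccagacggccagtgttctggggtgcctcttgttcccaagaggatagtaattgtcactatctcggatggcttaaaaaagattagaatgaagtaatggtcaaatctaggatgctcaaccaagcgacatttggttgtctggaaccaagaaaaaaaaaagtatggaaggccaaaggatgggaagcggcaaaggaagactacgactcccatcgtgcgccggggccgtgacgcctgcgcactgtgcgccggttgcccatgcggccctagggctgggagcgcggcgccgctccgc

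A GC box, the motif of SP and KLF factors, was found in all 5 promoters of lower genes shown here, with 7 matches in Sirt1, 4 in Brd1, 4 in Brd9, 2 in Brd7 and 1 in Hdac5. It is a common motif, present in 35.7% of the 32851 promoters of the table, in 64.4% of the promoters of measured genes and in 66.7% of the 45 promoters listed for the histone acetylation genes. The ETS motif was matched in Brd9, the CCAAT box in Hdac5, and the E-box in Hdac5 and Sirt1; over the promoters of measured genes their shares were 19.9%, 36.8% and 10.5%. NRF1, CRE and YY1 letters, with shares of 5.61%, 3.18% and 5.18%, were in none of the 5. The Kat2a window held none of the 7 motifs, which says only that these letters are not in those 300 bases. Its G and C content was 54.3%, near the median of 52.7% over all promoters of the table, against 60.7% to 79.0% in the other 5. The median over promoters of measured genes was not computed. In CG dinucleotides Kat2a, with 19, was not apart from Hdac5, with 18. Brd7 had 31, Brd1 36, Brd9 40 and Sirt1 47, and the median over the table was 7.

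Acetyltransferases of the MYST family were lower by a similar, modest amount, part of which was the shift of the median measured gene. Read against that gene, the measured ones lay between -0.09 (Kat6a) and -0.20 (Kat5) on the log2 scale. Kat5 (TIP60), the catalytic subunit of the NuA4 complex that acetylates histones H4 and H2A, was the most abundant acetyltransferase, with 27.1 FPKM in the AclyE14-ASO library and 34.7 FPKM in the Control-ASO library, a ratio of 0.782 (0.709 to 0.862). Kat6a (MOZ), which works with BRPF scaffolds on histone H3, had 9.91 FPKM with AclyE14-ASO and 11.8 with Control-ASO, a ratio of 0.843 (0.781 to 0.909). Kat7 (HBO1), which acetylates histones H3 and H4 with JADE or BRPF scaffolds, had 5.06 FPKM with AclyE14-ASO and 6.42 with Control-ASO, a ratio of 0.789 (0.701 to 0.887). All of these lay within 1.5-fold, and the AclyE14-ASO value was the lower one each time. Kat8 (MOF), the enzyme for lysine 16 of histone H4, had 136 counts with AclyE14-ASO and 189 with Control-ASO, a ratio of 0.802 whose interval of 0.639 to 1.01 includes no difference. Kat6b (MORF) was scarce, with 42 counts with AclyE14-ASO and 70 with Control-ASO and less than 1 FPKM in both libraries. Over the 5 MYST genes the summed counts had a ratio of 0.809 (0.769 to 0.852). Kat5 overlaps Rnaseh2c on the opposite strand, and both together gave nearly the same ratio, 0.788.

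The GCN5 family members went in opposite directions. Kat2a (GCN5; chromosome 11, 100704746 to 100712465), the acetyltransferase of the SAGA and ATAC complexes, had 203 counts and 3.49 FPKM in the AclyE14-ASO library and 161 counts and 2.48 FPKM in the Control-ASO library, a ratio of 1.41 (1.14 to 1.74). Its paralogue Kat2b (PCAF), which can take its place in those complexes, had 420 counts with AclyE14-ASO and 577 with Control-ASO, a ratio of 0.811 (0.714 to 0.922). The level of Kat2a relative to Kat2b was thus 0.611 in the AclyE14-ASO library and 0.353 in the Control-ASO library, a comparison that does not depend on how libraries are scaled. The odds ratio of the 4 counts was 1.73, with an exact counting interval of 1.35 to 2.22. This pair and every pair compared below were chosen after their values were seen, so such an interval is descriptive only. Against the median measured gene Kat2a was higher by 0.65 on the log2 scale, which is past 1.5-fold, and with TMM scaling its log2 ratio was 0.59, also past it.

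Coactivator acetyltransferases had lower values throughout. Ep300, the p300 enzyme that acetylates histone H3 at enhancers, had 4.31 FPKM in the AclyE14-ASO library and 4.91 FPKM in the Control-ASO library, a ratio of 0.878 (0.807 to 0.955), close to the median gene. Its paralogue Crebbp (CBP) had 1.28 FPKM with AclyE14-ASO and 1.68 with Control-ASO, a ratio of 0.760 (0.652 to 0.884). The ratio of Ep300 to Crebbp differed between libraries by 1.16-fold, with an interval of 0.971 to 1.38 that includes no difference. The steroid receptor coactivators, which bring p300 to nuclear receptors, had ratios of 0.738 and below. Ncoa3 had 1572 counts with AclyE14-ASO and 2517 with Control-ASO, a ratio of 0.696 (0.653 to 0.742), and Ncoa1 had 329 counts with AclyE14-ASO and 497 with Control-ASO, a ratio of 0.738 (0.640 to 0.850). Ncoa2 was under 1 FPKM in both libraries at an implied gene length of 21392 nt. It had 84 counts with AclyE14-ASO and 201 with Control-ASO, a ratio of 0.466 (0.357 to 0.604), the lowest of all 39 genes. Summed over the 3 coactivators the ratio was 0.688 (0.651 to 0.728). Ncoa3 overlaps Sulf2 on the opposite strand, which had 504 counts with AclyE14-ASO and 230 with Control-ASO; without strand-specific counting their reads could not be separated there, and together they had a ratio of 0.843 (0.795 to 0.892).

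Hat1 stood apart from the other abundant acetyltransferases. It acetylates newly made histone H4 in the cytoplasm before assembly into chromatin, and it had 882 counts and 19.2 FPKM in the AclyE14-ASO library and 934 counts and 18.3 FPKM in the Control-ASO library. The ratio of 1.05 had an interval of 0.959 to 1.16, which includes no difference, and lay 0.23 above the median measured gene on the log2 scale. Relative to Kat7, Hat1 was 1.33 times as high in the AclyE14-ASO library (1.15 to 1.55). The proliferation markers, which were higher in the same library, had sums of 15.4 FPKM with AclyE14-ASO and 4.47 FPKM with Control-ASO. A link between these markers and the level of Hat1 was not tested.

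**Figure D3:**
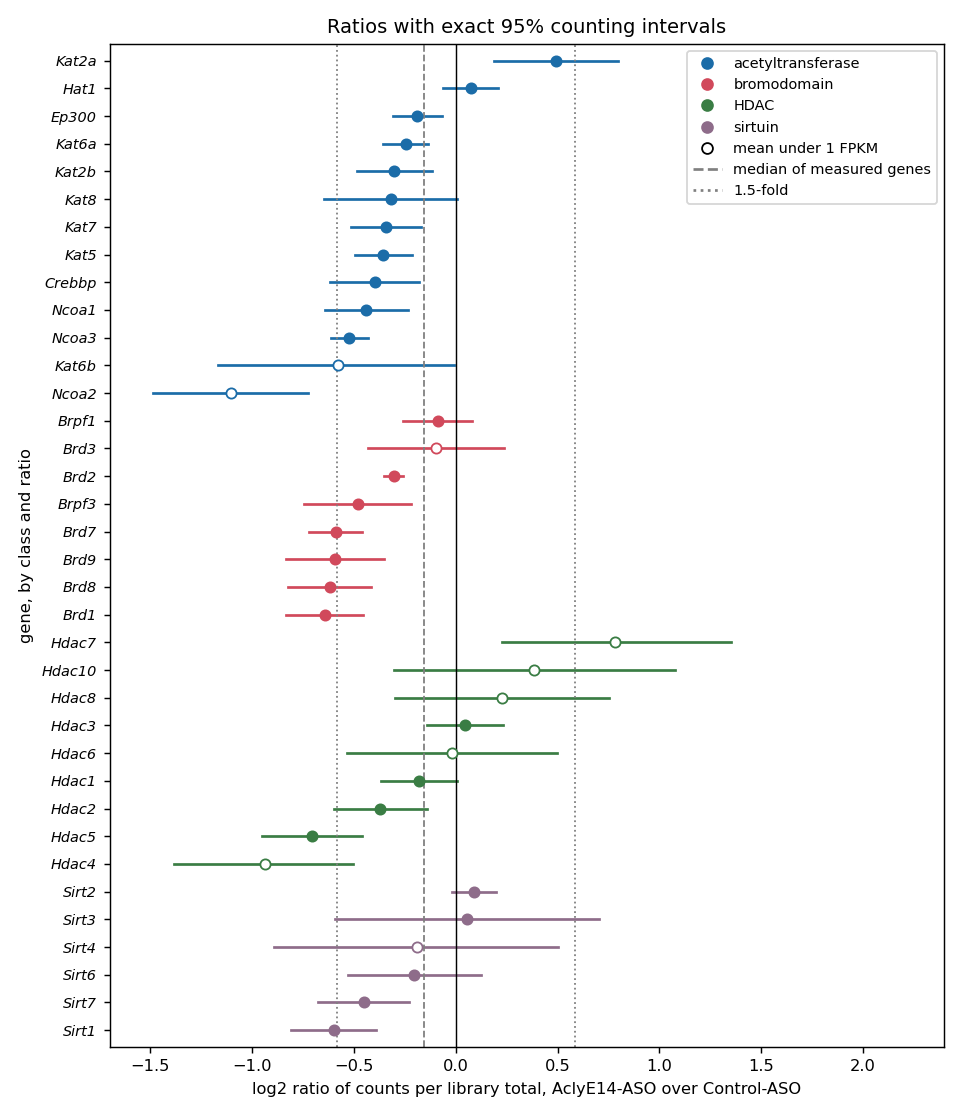
Log2 ratio of counts per library total, AclyE14-ASO over Control-ASO, with the exact 95% counting interval as a bar, for the 36 genes with a mean of at least 30 counts. Open points have a mean under 1 FPKM, the dashed line is the median of measured genes at -0.16 and dotted lines mark 1.5-fold. Kat2a and Hdac7 have bars wholly to the right of 0, and Ncoa2 and Hdac4 lie farthest to the left.

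Among the bromodomain genes 4 of 7 measured were lower by 1.5-fold or more, where 14.4% of all measured genes were, and all 7 had a ratio below 1. Their median log2 ratio was -0.59. Over the 20 other measured bromodomain and YEATS readers described below, the median was -0.06 and 1 was lower. Brd1 (BRPF2), the scaffold that joins KAT7 or KAT6 enzymes to chromatin, had 365 counts in the AclyE14-ASO library and 635 in the Control-ASO library, a ratio of 0.641 (0.562 to 0.730). Its paralogue Brpf1 had 532 counts with AclyE14-ASO and 631 with Control-ASO, a ratio of 0.940 (0.836 to 1.06), and its paralogue Brpf3 had 196 counts with AclyE14-ASO and 305 with Control-ASO, a ratio of 0.716 (0.596 to 0.860). On the deposited FPKM, the level of Brpf1 relative to Brd1 was 1.04 in the AclyE14-ASO library and 0.710 in the Control-ASO library, an odds ratio of 1.47 (1.23 to 1.75). The odds ratio does not depend on gene length. For Brpf3 relative to Brd1 it was 1.12 (0.890 to 1.40), which includes no difference.

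The other 3 lower bromodomain genes belong to remodelling or acetyltransferase complexes. Brd7, a subunit of the PBAF form of SWI/SNF, had 754 counts and 8.40 FPKM in the AclyE14-ASO library and 1265 counts and 12.6 FPKM in the Control-ASO library, with an interval for its ratio of 0.606 to 0.728. Brd9, which marks the non-canonical SWI/SNF form, had 232 counts with AclyE14-ASO and 390 with Control-ASO, with an interval of 0.561 to 0.782. Brd8 (chromosome 18, 34598615 to 34624601), a subunit of the NuA4 complex, had 315 counts with AclyE14-ASO and 539 with Control-ASO, a ratio of 0.652 (0.565 to 0.750). All 3 had ratios close to each other and close to that of Brd1.

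The BET proteins lay nearer to the median gene. Brd2 had 6230 counts in the AclyE14-ASO library and 8580 in the Control-ASO library, a ratio of 0.809 (0.783 to 0.836). It made up most of the counts of its class, so the summed class ratio of 0.781 (0.760 to 0.803) mainly reports Brd2. Brd3, under 1 FPKM in both libraries, had 140 counts with AclyE14-ASO and 167 with Control-ASO, a ratio of 0.935 (0.741 to 1.18). Relative to Brd7, Brd2 was 1.22 times as high in the AclyE14-ASO library (1.11 to 1.34). Brd2 shares exon sequence with the opposite-strand gene H2-DMa, and both together had a ratio of 0.828.

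The class I deacetylases, which are mainly nuclear and include the enzymes of the SIN3, NuRD, CoREST and NCoR complexes, had ratios between 0.774 and 1.17. Hdac3, the enzyme of the NCoR and SMRT corepressors, had 452 counts in the AclyE14-ASO library and 488 in the Control-ASO library, a ratio of 1.03 (0.907 to 1.18). Hdac1 had 419 counts with AclyE14-ASO and 529 with Control-ASO, a ratio of 0.883 (0.775 to 1.01), and its partner Hdac2 had 270 counts with AclyE14-ASO and 389 with Control-ASO, a ratio of 0.774 (0.660 to 0.906). Hdac8 had 65 counts with AclyE14-ASO and 62 with Control-ASO at less than 1 FPKM, a ratio of 1.17 (0.813 to 1.68). Intervals for Hdac1, Hdac3 and Hdac8 include no difference, and the one for Hdac2 does not. Relative to Hdac2, Hdac3 was 1.33 times as high in the AclyE14-ASO library (1.09 to 1.64), while the shift of Hdac3 relative to Hdac1 was 1.17-fold (0.972 to 1.41). Over the 4 class I genes the summed counts had a ratio of 0.916 (0.848 to 0.989), above the ratio of the bromodomain class.

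Class IIa deacetylases, which shuttle between cytoplasm and nucleus and bind MEF2 factors, differed widely among themselves. Only Hdac5 was measured, with 215 counts and 1.05 FPKM in the AclyE14-ASO library and 391 counts and 1.71 FPKM in the Control-ASO library, a ratio of 0.613 (0.517 to 0.726), the lowest of the 27 measured genes. Hdac4 had 66 counts with AclyE14-ASO and 141 with Control-ASO, a ratio of 0.522 (0.384 to 0.704). Hdac7 went the other way, with 71 counts with AclyE14-ASO and 46 with Control-ASO, a ratio of 1.72 (1.17 to 2.55). Hdac9 had 8 counts with AclyE14-ASO and 9 with Control-ASO, too few to place its ratio, whose interval ran from 0.333 to 2.89. The level of Hdac7 relative to Hdac5 was 0.406 in the AclyE14-ASO library and 0.144 in the Control-ASO library, an odds ratio of 2.80 (1.83 to 4.32). Hdac7 lies at a low level beside the opposite-strand gene Slc48a1, with 1269 counts with AclyE14-ASO and 1353 with Control-ASO, and exons of both overlap over 29 nt, so some of its reads could be shared if counting ignored strand. The class IIb enzyme Hdac6, a tubulin deacetylase, had 62 counts with AclyE14-ASO and 70 with Control-ASO, and Hdac10, a polyamine deacetylase, had 41 counts with AclyE14-ASO and 35 with Control-ASO. Both intervals include no difference. Hdac11 had 1 count with AclyE14-ASO and 0 with Control-ASO.

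Among sirtuins, Sirt1 and Sirt2 parted. Sirt1, the nuclear enzyme that deacetylates histones, p53 and NF-kB p65, had 306 counts in the AclyE14-ASO library and 517 in the Control-ASO library, a ratio of 0.660 (0.571 to 0.762). Sirt2, mainly cytoplasmic, was the most abundant sirtuin and had 1379 counts with AclyE14-ASO and 1445 with Control-ASO, a ratio of 1.06 (0.988 to 1.15). The level of Sirt2 relative to Sirt1 was 7.61 in the AclyE14-ASO library and 4.72 in the Control-ASO library, an odds ratio of 1.61 (1.37 to 1.90). As with the other pairs, this one was chosen after its values were seen. Sirt2 overlaps the opposite-strand gene Nfkbib over 42 nt, which had 4359 counts with AclyE14-ASO and 4591 with Control-ASO. Sirt7, found in the nucleolus, had 273 counts with AclyE14-ASO and 416 with Control-ASO, a ratio of 0.732 (0.626 to 0.854). It shares 124 nt of exon with Mafg on the same strand, and both together had a ratio of 0.702 (0.654 to 0.754). Sirt6, a chromatin-bound deacetylase of histone H3, had 141 counts with AclyE14-ASO and 181 with Control-ASO, a ratio of 0.868 (0.692 to 1.09). The mitochondrial sirtuins were scarce: Sirt3 had 41 counts with AclyE14-ASO and 44 with Control-ASO, Sirt4 had 33 counts with AclyE14-ASO and 42 with Control-ASO, and Sirt5 had 9 counts with AclyE14-ASO and 14 with Control-ASO. All 3 intervals include no difference. Sirt3 also shares exon sequence with the opposite-strand genes Psmd13 and Ric8a, which had far more reads.

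Of the 12 genes under 1 FPKM, Ncoa2 and Hdac4 were lower by 1.5-fold or more, Hdac7 was higher, Kat6b had a ratio of 0.669 just inside the limit, and Hdac11 cannot be placed. Among all genes with at least 1 count, 21.1% were lower and 23.3% higher by that limit. In sum these 12 had 622 counts in the AclyE14-ASO library and 857 in the Control-ASO library, a ratio of 0.809 (0.729 to 0.898). By a limit of 30 mean counts in place of 1 FPKM, 8 of 36 genes were lower, where 14.9% of all genes past that limit were, and 1 was higher, where 11.0% were. Over the 13 pairs of these genes compared within libraries, chosen after their values were seen, 8 odds ratios had an interval that excluded 1. Because of that choice the count cannot be read as a result, and no share over other gene pairs was computed.

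Partners of these enzymes were examined to see whether whole complexes shared the lower values. Over 7 lists of complex subunits and other acetyl-lysine readers 100 of 121 genes were measured, of which 11 were lower by 1.5-fold or more, where 14.4% of measured genes were, and 1 was higher, where 9.4% were. Of the 21 genes under 1 FPKM, 5 were lower and 3 higher by the same limit. With no FPKM minimum, 21.1% of all genes with at least 1 count were lower and 23.3% higher. No share was computed for genes under 1 FPKM alone. The median log2 ratio over the 100 was -0.19, close to that of all measured genes. Subunits of the MOZ/MORF, HBO1, MSL and NSL complexes had the lowest median of those lists, -0.38, with 2 of 13 lower, and their summed counts had a ratio of 0.774 (0.745 to 0.803). Mcrs1, their most abundant gene and the one with the highest ratio at 5 FPKM or more, had 248 counts with AclyE14-ASO and 373 with Control-ASO, and Kansl3, an NSL subunit, had 787 counts with AclyE14-ASO and 1187 with Control-ASO, a ratio of 0.739 (0.675 to 0.810). Ogt, of the same list but under 5 FPKM, had 346 counts with AclyE14-ASO and 694 with Control-ASO. Its ratio was 0.556 (0.487 to 0.633), the only interval wholly past 1.5-fold among the 100.

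In the NuA4/TIP60 list, which holds the partners of Kat5, the median was -0.25 and 2 of 14 genes were lower and 0 higher. For this list and the next, the shares of all measured genes were 14.4% lower and 9.4% higher. Epc1, the scaffold that holds Kat5 in the complex, had 375 counts in the AclyE14-ASO library and 638 in the Control-ASO library, a ratio of 0.655 (0.575 to 0.746). Morf4l1, its chromodomain subunit, lay at the other end with 1142 counts with AclyE14-ASO and 853 with Control-ASO, a ratio of 1.49 (1.36 to 1.63), and the acetyl-lysine reader Yeats4 had 27.9 FPKM with AclyE14-ASO and 41.7 with Control-ASO. In the SAGA and ATAC list, the partners of Kat2a and Kat2b, 2 of 21 were lower and 0 higher, with a median of -0.29. Taf5l had a ratio of 0.632 (0.539 to 0.740) and Taf10 one of 1.14 (1.02 to 1.28), while Dr1 had 19.8 FPKM with AclyE14-ASO and 21.7 with Control-ASO. Kat2a, at 1.41, was itself not called higher by this limit. Of the 21 measured partners 18 had a ratio below 1, where 64.9% of measured genes had one. The interval lay wholly above 1 for 1 of them, Taf10, where 21.7% of measured genes had such an interval.

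Deacetylase complexes had medians of -0.08 for NuRD (1 of 12 lower, 1 higher), -0.24 for SIN3 (1 of 11 lower) and -0.26 for CoREST with NCoR and SMRT (2 of 9 lower). Over all measured genes 14.4% were lower and 9.4% higher. Chd3, a NuRD remodelling ATPase, had 894 counts in the AclyE14-ASO library and 638 in the Control-ASO library, a ratio of 1.56 (1.41 to 1.73), the only higher call among the measured complex subunits. The NuRD subunits Rbbp4, a histone chaperone, and Gatad2a had ratios of 0.726 and 0.754. Sap30, a SIN3 subunit, was the most abundant of all partners, with 175 FPKM with AclyE14-ASO and 239 with Control-ASO, a ratio of 0.733 (0.698 to 0.770). In the same complex Sap130 had a ratio of 1.28 (1.14 to 1.43) and Sap30l one of 0.677. Sap18, a SIN3 subunit just under 1 FPKM, had 134 counts with AclyE14-ASO and 13 with Control-ASO, a ratio of 11.5 (6.50 to 22.1). That value is uncertain, because its paralogue Sap18b had 1426 counts with AclyE14-ASO and 1639 with Control-ASO and the division of reads between them is not known. Both together had a ratio of 1.05 (0.982 to 1.13). Tbl1x, an exchange factor of the NCoR complex, had a ratio of 1.38 (1.23 to 1.55) and Gps2 one of 0.837. The 2 lower genes of that list, with 0 higher, were under 5 FPKM. They were Kdm1a, with a ratio of 0.618 (0.531 to 0.719), and Hmg20b, with one of 0.634 (0.531 to 0.756).

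Other bromodomain and YEATS readers lay closer to the median gene. Of 20 measured, 1 was lower and 0 higher, where 14.4% of measured genes were lower and 9.4% higher. Their median was -0.06, above that of all measured genes. Sp140, a bromodomain protein of immune cells, was the most abundant, with 105 FPKM in the AclyE14-ASO library and 98.3 in the Control-ASO library, a ratio of 1.07 (1.03 to 1.10), and the YEATS protein Mllt1 had a ratio of 0.859 (0.751 to 0.981). The difference from the 7 measured bromodomain genes described above was not tested.

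Genes that make and use NAD+, the cosubstrate of sirtuins, formed a small list of 6 measured genes of 12, of which 3 were lower by 1.5-fold or more and 0 higher, with a median of -0.60; the shares of all measured genes were 14.4% lower and 9.4% higher. Of the 6 under 1 FPKM, 2 were lower and 2 higher, where 21.1% of all genes with at least 1 count were lower and 23.3% higher. The lower ones were Nmnat3, with a ratio of 0.585 (0.369 to 0.911), and Nmrk1, with one of 0.415 (0.232 to 0.716). The higher ones were Nmnat2, which makes NAD+, with 40 counts with AclyE14-ASO and 5 with Control-ASO, a ratio of 8.92 (3.52 to 29.0), and Nnmt, which methylates nicotinamide, with 54 counts with AclyE14-ASO and 8 with Control-ASO, a ratio of 7.53 (3.56 to 18.3). Nadk, which turns NAD+ into NADP+, had 678 counts in the AclyE14-ASO library and 1176 in the Control-ASO library, a ratio of 0.643 (0.584 to 0.707). Nmnat1, a paralogue of Nmnat2, was measured and lower as well, with 178 counts with AclyE14-ASO and 324 with Control-ASO. Its ratio was 0.612 (0.507 to 0.738), and that of Nadsyn1, also called lower, was 0.552 (0.380 to 0.790). Nampt, the enzyme that salvages NAD+ from nicotinamide, was abundant at 145 FPKM with AclyE14-ASO and 172 with Control-ASO, a ratio of 0.844 (0.820 to 0.868). Cd38, which consumes NAD+, had 512 counts with AclyE14-ASO and 514 with Control-ASO, a ratio of 1.11 (0.981 to 1.26).

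Histone methyltransferases and demethylases, a separate class of histone modifiers, had 4 of 27 measured genes lower and 0 higher, with a median of -0.18, where 14.4% of measured genes were lower and 9.4% higher. Of the 12 under 1 FPKM, 0 were lower and 1 was higher, Setd7, a lysine methyltransferase, with 185 counts with AclyE14-ASO and 86 with Control-ASO, with an interval for its ratio of 1.85 to 3.13. The shares over all genes with at least 1 count were 21.1% lower and 23.3% higher. Dot1l, the histone H3 lysine 79 methyltransferase, had the lowest ratio of any partner or modifier listed at 5 FPKM or more, with 668 counts in the AclyE14-ASO library and 2207 in the Control-ASO library, a ratio of 0.337 (0.309 to 0.368). Kdm6b, the LPS-inducible demethylase of histone H3 lysine 27, had 1529 counts with AclyE14-ASO and 1195 with Control-ASO, a ratio of 1.43 (1.32 to 1.54), and Setdb2 had 13.2 FPKM with AclyE14-ASO and 19.3 with Control-ASO. No acetylation gene reached the ratio of Dot1l.

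**Figure D4:**
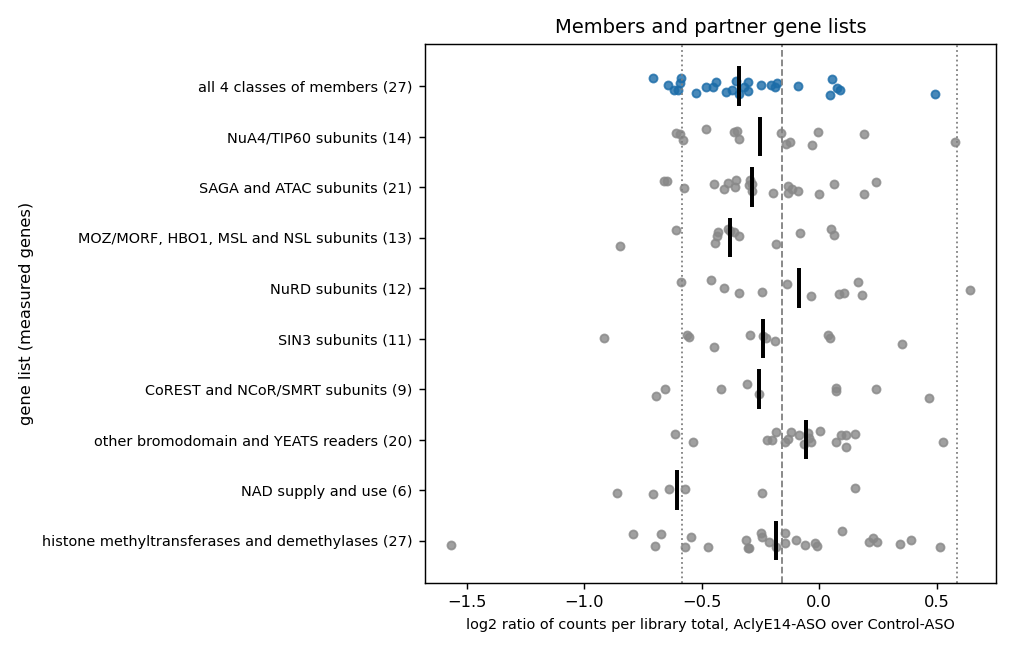
Log2 ratio of counts per library total, AclyE14-ASO over Control-ASO, for measured genes of each list, with the number of genes in brackets and the list median as a bar. The blue row holds the 27 histone acetylation genes, the dashed line is the median of measured genes at -0.16 and dotted lines mark 1.5-fold. Medians run from -0.60 for NAD supply and use to -0.06 for other bromodomain and YEATS readers.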

How the data were processed

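RNA sequencing libraries of 2 macrophage samples were compared, 1 per group. The authors deposited 1 table with raw gene counts and FPKM values for both, per the file headers. The submitters' processing notes list mm10 as the build and HISAT2, StringTie 1.3.0 and edgeR as tools, without their roles. The sources used here do not say how reads were counted or whether strand was used. Between the libraries FPKM per count differed by a factor of 1.1148 to 1.1149, equal to the ratio of the count totals of 1.1148, so the deposited FPKM are scaled to summed gene counts. The gene lengths implied by them were a median of 1.22 times the summed exons of GENCODE M21 (GRCm38), so FPKM depends on a gene model not given here.

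Symbols were matched by identifier for 34267 of 34745 rows. Ratios are of counts per library total, with no pseudocount. Calls were by size, 1.5-fold, and no p-value was computed. The genes, lists and thresholds were chosen with earlier results of these data known. All 39 genes are named; of each partner list the text names the most abundant gene and those with the highest and lowest ratio at a mean of 5 FPKM or more. Sap18, Nmnat2, Nnmt and Setd7 were named in addition, after their values were seen, as the partner genes under 1 FPKM whose interval lay wholly past 1.5-fold. Ogt, Kdm1a, Hmg20b, Nmnat1 and Nadsyn1, measured but under 5 FPKM, were also named after their values were seen. So were Nmnat3 and Nmrk1, under 1 FPKM, and the macrophage markers Cd68 and Itgam. The columns were matched to samples by the names Control and ASO14 in the header and the sample titles. Within-library pairs were compared by the conditional odds ratio. Calculations were tested on simulated counts. Alternatives were centring on the median measured gene, edgeR 4.0.16 TMM factors, pseudocounts of 1 and 0.1 on FPKM, removal of a running-median trend (401 genes) on length, other limits on low values, and fold limits of 5 to 4 and of 2-fold. Python 3.11.15, NumPy 2.4.6, pandas 2.3.3, SciPy 1.17.1 and R 4.3.3 were used.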

Additional observations from a re-analysis of the deposited data

How the results depend on the processing

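The median log2 ratio of the measured histone acetylation genes, -0.34, stayed negative under every alternative run, between -0.18 (centred) and -0.34 (pseudocount of 0.1), and lay below the median of all genes under the same setting each time. Centring and TMM shift every gene alike, so under them the gap between these medians could not change. The count of 6 lower genes depended on the setting. In the following, the share of all genes past the same limit stands in brackets. It was 0 when centred on the median measured gene (8.2%), 1 with TMM (10.1%), 0 with a pseudocount of 1 on FPKM (8.48%), 2 of 12 at a mean of at least 5 FPKM (11.6%), 14 at a fold limit of 5 to 4 (33.7%) and 0 at 2-fold (3.36%). It was 4 with a pseudocount of 0.1 (13.7%) and with the length trend removed (14.3%), and 8 of 39 with no filter beyond 1 count (21.1%). The count of 0 higher genes became 1 when centred (12.9%), 1 with TMM (11.5%), 1 at a fold limit of 5 to 4 (16.4%), 2 with no filter beyond 1 count (23.3%), and 1 of 36 at a mean of at least 30 counts (11.0%), a limit chosen after seeing the data, at which 8 were lower (14.9%). Kat2a was the higher gene when centred and with TMM. Of the single genes, 8 of 27 moved outside their counting interval when centred, 2 with TMM and 1 with a pseudocount of 1. No called gene turned its direction. No paired analysis was possible because each group had 1 library. Leaving out a replicate was likewise not possible. At 8 to 71 counts, as for Hdac7 and Hdac9, counting error alone spans more than 1.5-fold.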
